A study of Schizosaccharomyces pombe with 4 samples.

Results

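S. pombe fas S.j. cells are fission yeast (Schizosaccharomyces pombe) in which fas1 and fas2, the genes for the subunits of the cytosolic fatty acid synthase, were replaced by those of Schizosaccharomyces japonicus. Poly(A) RNA of these cells and of wild type was sequenced from exponential cultures in the rich medium YES at 24°C, with 1 library a strain. The same strains were also sequenced at 30°C, which makes 4 libraries in all. The methods describe wild type as a prototroph of the h- mating type. They list h- and h+ strains with the replacement, some carrying auxotrophic markers, and do not say which was sequenced, so the replaced synthase cannot be told apart from other differences between the strains. Members of the comparison were the 4943 genes, of 5143 in the 24°C table, whose FPKM (sequenced fragments on a gene, scaled to transcript length and library size) averaged at least 1 over both libraries. Change was the difference in log2(FPKM + 1), fas S.j. minus wild type, a scale that understates the change of weakly expressed genes. A gene was counted as having risen or fallen when its change was at least 0.8 in size. With 1 library a side no test was possible, and all values describe these libraries only.

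The cytosolic synthase builds saturated acyl chains from acetyl-CoA and malonyl-CoA, and malonyl-CoA is made by the biotin-dependent enzyme Cut6. The acyl-CoA products are desaturated by Ole1 and built into phospholipids and storage lipids. Fission yeast cells answer many stresses through the MAP kinase Sty1 and its transcription factor Atf1, and oxidants through the factor Pap1. Starvation for nitrogen activates the transcription factor Ste11, which turns on the genes for mating and meiosis.

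The replaced genes served as a check of the labels. On the RefSeq annotation of assembly ASM294v3, fas1 lies on chromosome I at 3900130 to 3907054 and fas2 on chromosome I at 2566866 to 2572618. Transcript of S. pombe fas1 read 301 FPKM in wild type and 7.35 FPKM in fas S.j., and that of fas2 read 336 and 0.320 FPKM. Both S. pombe transcripts were thus close to absent from the library labelled as the replacement. The genes beside fas1 stayed between the limits, with changes of 0.18 for rpf2 and 0.39 for pos5. Beside fas2, rog1 went from 31.8 to 76.7 FPKM and cwf21 from 34.4 to 67.7 FPKM. Those genes share a locus with fas2 in the authors' table, where reads can be divided among overlapping genes. The marker ura4 was read at 139 FPKM in wild type and 165 FPKM in fas S.j.

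Rises outnumbered falls in fas S.j. cells by a ratio of 2.01. Of the 4943 members, 207 rose, which is 4.19%, and 103 fell, which is 2.08%. The median change was -0.0037 and 49.3% of members were higher in fas S.j. FPKM is scaled to library size, so a shift common to all genes could not be read from these values. The central 90% of changes lay between -0.46 and 0.71. A change of at least 2 was reached by 32 rises and 23 falls. In wild type the genes that rose had a median of 13.3 FPKM against 41.8 FPKM for all members, and 86 of the 207 were below 10 FPKM. In fas S.j. the medians were 36.9 and 41.9 FPKM. The genes were chosen by a difference that includes the wild-type value, so a low wild-type median is partly built in. Among members with 1 annotated exon were 75.5% of the genes that rose and 82.2% of those that fell, against 51.0% of all annotated members. Genes whose product is annotated as uncharacterized made up 18.1% of the rises and 6.20% of all members. Without SPAC27E2.14, which was listed at 0 in wild type, the genes that rose took 1.01% of the summed FPKM of the wild-type library, against 2.80% of that of fas S.j.

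**Figure D1:**
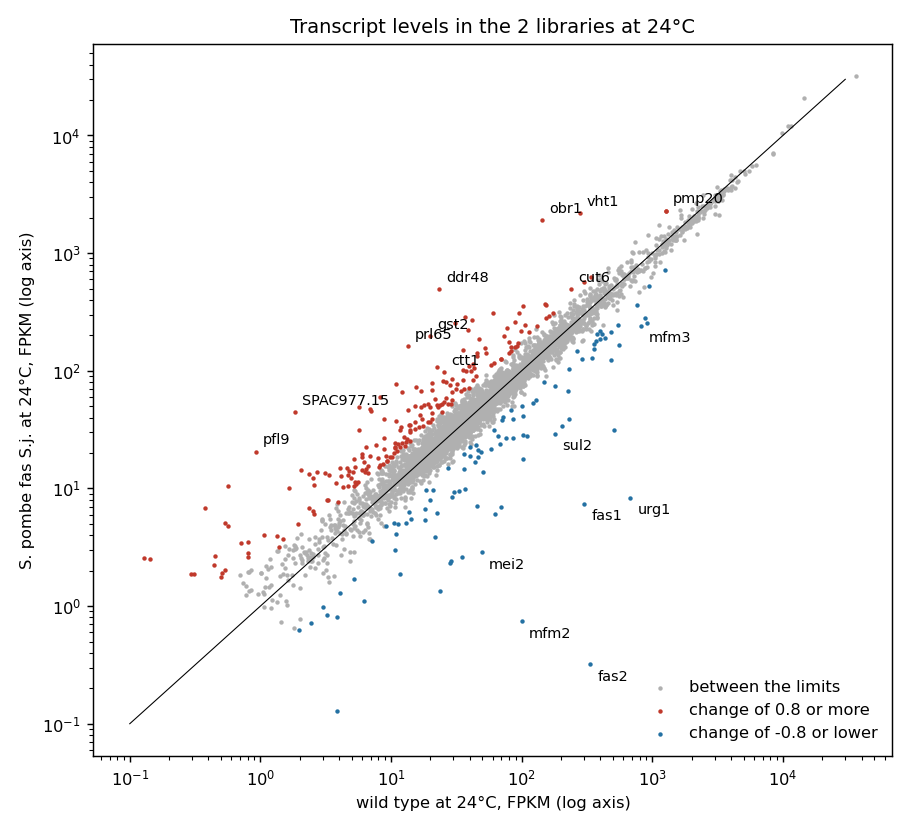
Each point is a gene with FPKM above 0 in both libraries at 24°C, with wild type on the x axis and S. pombe fas S.j. on the y axis, both in FPKM on log axes. Red points rose by at least 0.8 on the log2(FPKM + 1) scale (207 genes, including those listed at 0 and not drawn), blue points fell by at least as much (103 genes), and the line marks equal levels.

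The depth and the authors' gene models limited what these counts show. Low FPKM values fell on steps that correspond to about 13100000 reads for wild type and 10300000 for fas S.j., an approximate estimate from 36 and 29 genes. A share of 16.7% of members with a mean FPKM from 1 to 3 rose and 8.33% fell, against 1.91% and 3.34% of those at 300 FPKM or more. At the minimum itself, meu10 was just inside (0.770 and 1.24 FPKM) and SPBC13G1.15c just outside (1.25 and 0.719 FPKM). Of all members, 2701 share a locus with an overlapping or adjoining gene, and whether strand was used in counting is not given in the sources used here. Of the 2242 members alone in their locus, 117 rose (5.22%) and 53 fell (2.36%).

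The largest rise among genes read at 1 FPKM or more in both libraries was that of ddr48, named after a stress-induced gene of Saccharomyces cerevisiae. It read 23.3 FPKM in wild type and 493 FPKM in fas S.j., a change of 4.35. SPAC977.15, annotated as a dienelactone hydrolase family protein implicated in detoxification, followed with 1.83 and 44.4 FPKM (change 4.01). The quinone oxidoreductase gene obr1 went from 142 to 1917 FPKM (change 3.75) and moved from rank 810 to rank 99 among all genes of its library. As plain ratios of FPKM these were 21.2-fold, 24.3-fold and 13.5-fold, the last of them for a gene already read at over 100 FPKM in wild type. The next were prl65, first described as a transcript without a long reading frame, from 13.4 to 163 FPKM, and gst2, a glutathione S-transferase, from 19.95 to 196 FPKM. The biotin transporter gene vht1 stood out for its level, from 278 to 2181 FPKM, which took it from rank 441 to rank 80.

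Some of the 20 largest rises had annotated relatives. Both annotated genes of the Con-6 family rose, SPAC11D3.01c from 31.1 to 254 FPKM and SPAC869.09 from 0.568 to 10.5 FPKM. The catechol O-methyltransferase gene cmt2 went from 5.71 to 49.7 FPKM (change 2.92), and its paralogue cmt1 from 132 to 239 FPKM (change 0.85). Among the 20 were also the NAD-binding dehydrogenase SPACUNK4.17 at 60.1 and 309 FPKM, the NADP-dependent oxidoreductase SPAPB24D3.08c at 22.7 and 107 FPKM and the 3-hydroxyacyl-CoA dehydrogenase SPAC4H3.08 at 5.71 and 31.6 FPKM. The enolase paralogue eno102 rose from 6.99 to 45.7 FPKM, while eno101, which encodes the main enolase of glycolysis, read 10914 and 11944 FPKM.

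The rest of the 20 had varied or unknown roles. SPAC3G6.05, of the Mpv17/PMP22 family of organelle membrane proteins, read 37.0 and 288 FPKM. The spermidine family transporter SPCC569.05c read 8.20 and 59.3 FPKM, lsd90 read 41.9 and 270 FPKM, and the But2 family gene SPAC27D7.09c read 10.9 and 77.1 FPKM. Other genes of the But2 family were lower in fas S.j., with but2 at 684 and 596 FPKM and SPAC27D7.11c at 422 and 245 FPKM. The phenazine biosynthesis family gene aes1 (39.0 and 223 FPKM), the GDT1-like gene gdt1 (12.1 and 66.1 FPKM), the agmatinase SPAC11D3.09 (2.05 and 14.4 FPKM) and the uncharacterized SPBC32H8.15 (6.85 and 47.3 FPKM) completed the set. Of these 20 genes, 15 were alone in their locus, the exceptions being ddr48, vht1, SPAC3G6.05, SPCC569.05c and SPAC11D3.09. The smallest change among the 20 was 2.19.

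**Figure D2:**
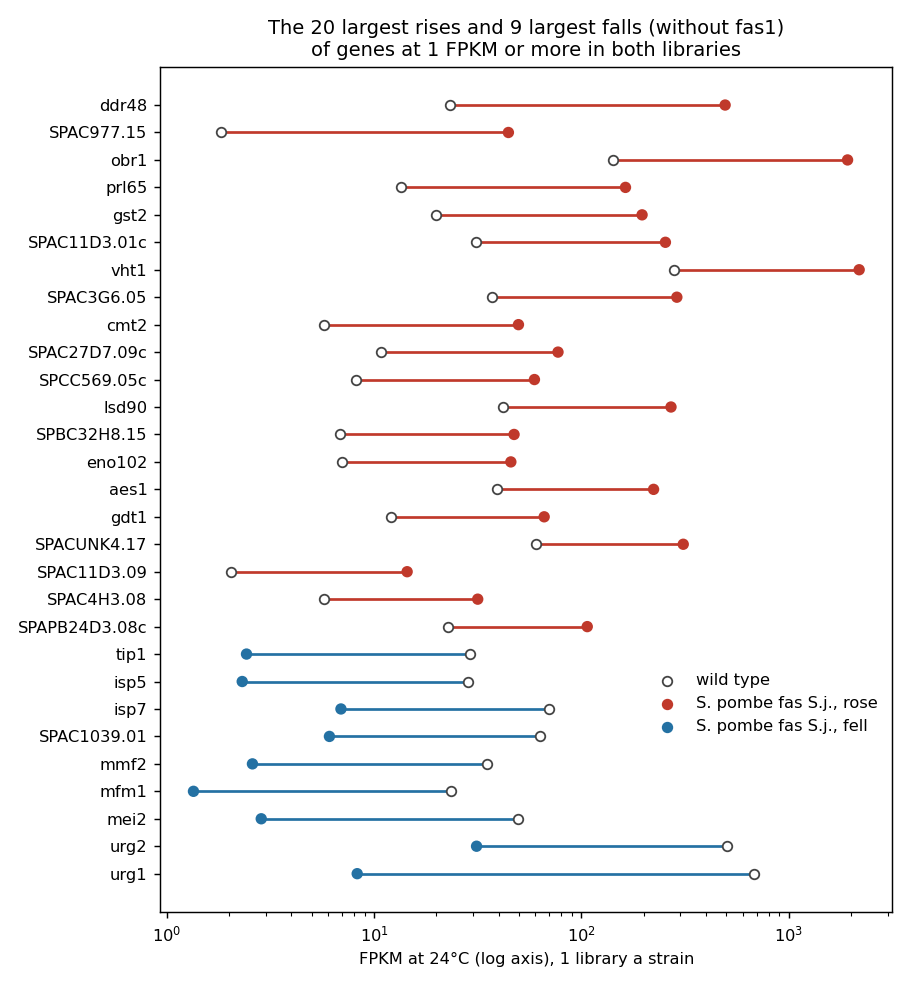
FPKM at 24°C on a log axis for the 20 largest rises (red) and the 9 largest falls other than fas1 (blue) among genes with at least 1 FPKM in both libraries. Open circles are wild type and filled circles S. pombe fas S.j., 1 library each; the rises run from 4.35 for ddr48 down to 2.19 for SPAPB24D3.08c.

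A further 5 genes that rose were listed at 0 in wild type. An FPKM of 0 in such a table can be a failed estimate, so no fold is given. SPAC27E2.14 was listed at 0 and 2579 FPKM, but its locus in the authors' table spans only 156 bases. The others were cum1 (0 and 51.7 FPKM), mug108 (0 and 32.6 FPKM), gem8 (0 and 7.04 FPKM) and SPAC186.02c (0 and 2.25 FPKM). All but SPAC27E2.14 and SPAC186.02c share a locus with another gene. In the other direction, tom7 (16.7 FPKM in wild type), mug117 (5.27 FPKM), SPAC513.04 (4.81 FPKM) and bqt1 (2.42 FPKM) were listed at 0 in fas S.j.

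Gene lists were then compared by their median change and by how many members passed the limit, against 4.19% of all members for rises and 2.08% for falls. The lists were chosen with earlier results of these data known, so their shares past a limit may partly reflect that choice and were not tested. The lists covered 84 of the 207 genes that rose and 61 of the 103 that fell. Of 31 oxidative stress genes, 9 rose (29.0%) and none fell, and the median was 0.34. After obr1 and gst2, the glyoxalase gene hsp3101 went from 15.6 to 72.7 FPKM and the ergothioneine synthesis gene egt1 from 8.90 to 38.7 FPKM. Catalase, encoded by ctt1, read 25.5 and 97.9 FPKM (change 1.90), gst4 read 39.8 and 111 FPKM, and the drug efflux pump gene bfr1 read 42.7 and 114 FPKM. The peroxiredoxin-related pmp20, already abundant at 1265 FPKM, reached 2297 FPKM, and hsp3102 went from 0.569 to 4.77 FPKM. Of these 9 genes, egt1, hsp3102, gst4 and bfr1 share a locus with another gene.

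The rises did not extend to the whole defence system. Superoxide dismutase sod1 read 573 and 446 FPKM, the peroxiredoxin tpx1 2177 and 1869 FPKM, and thioredoxin trx1 2228 and 1982 FPKM, so these abundant enzymes were somewhat lower in fas S.j. Thioredoxin reductase trr1 (214 and 220 FPKM) and sulfiredoxin srx1 (40.6 and 43.1 FPKM) were close to equal. Transcript of pap1 itself went from 63.0 to 83.5 FPKM (change 0.40). Among the 39 genes annotated as oxidoreductases, 10 rose (25.6%) and 2 fell, with a median of 0.34. By family, chosen after the values were seen, 3 of 5 aldo-keto reductases rose and all 5 were higher, 3 of 6 glyoxalase III and ThiJ genes rose, and 2 of 5 glutathione S-transferases rose.

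Targets of the Sty1-Atf1 pathway moved unevenly. Of 26 members, 4 rose (15.4%) and 1 fell, with a median of 0.21. The 4 were ddr48, lsd90, ctt1 and fbp1. The glycerol-3-phosphate dehydrogenase gene gpd1, which serves osmotic adaptation, read 736 and 1242 FPKM (change 0.75), and hsp9 read 2459 and 3094 FPKM (change 0.33). Transcripts of the pathway's own components were level or lower, with atf1 at 63.6 and 63.7 FPKM, sty1 at 170 and 143 FPKM and pcr1, the partner of Atf1, at 47.9 and 31.1 FPKM. The member that fell was sro1, from 101 to 50.5 FPKM. The 21 heat shock genes had a median of 0.02 (0.26 over the 11 alone in their locus). Only hsp16, a small heat shock protein, at 94.8 and 313 FPKM, and ubi4, polyubiquitin, at 76.8 and 230 FPKM, rose among them. The disaggregase gene hsp104 read 130 and 92.0 FPKM.

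**Figure D3:**
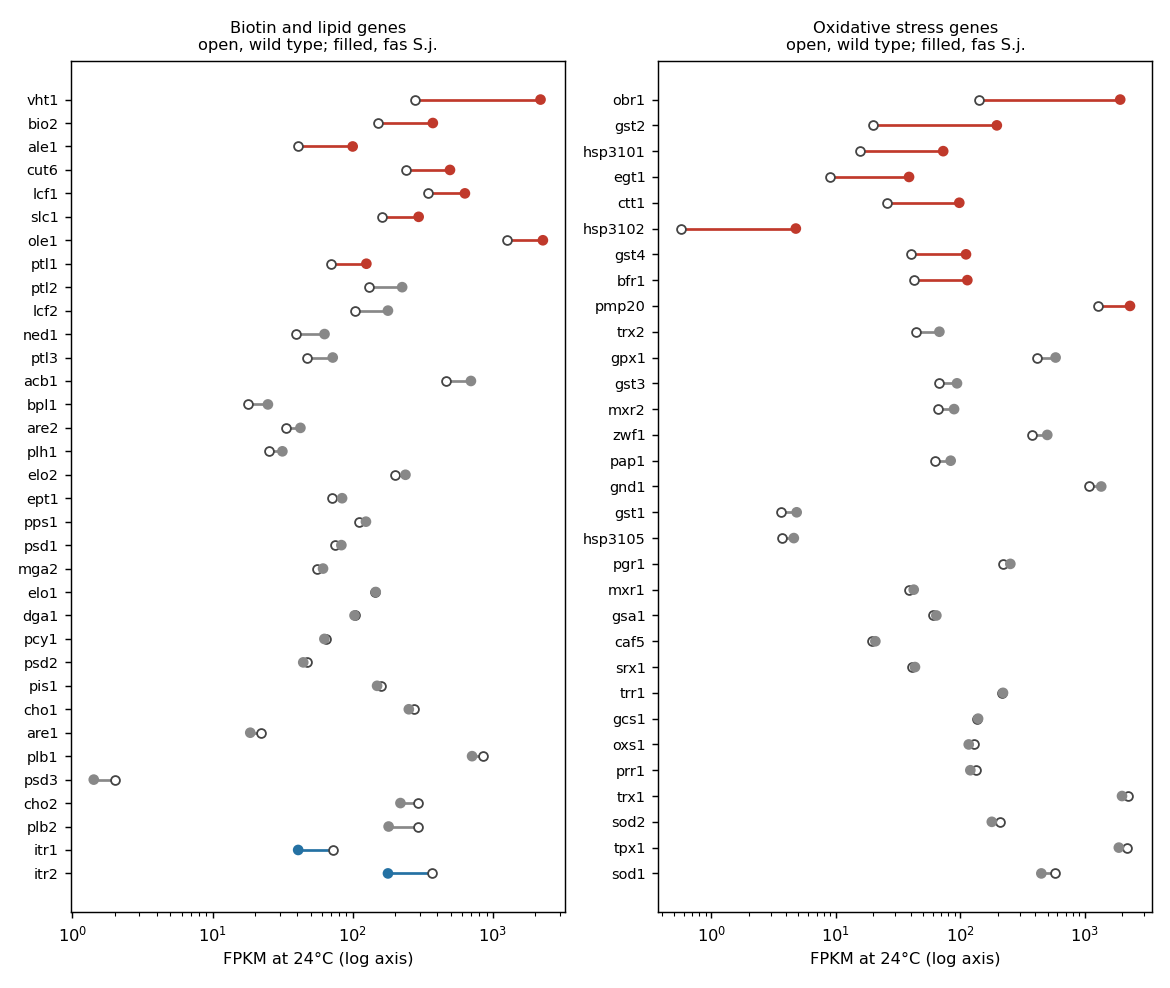
FPKM at 24°C on log axes for the members of the biotin and lipid lists (left) and of the oxidative stress list (right), ordered by change, with open circles for wild type and filled circles for S. pombe fas S.j. Red marks the genes that rose and blue those that fell by at least 0.8; the largest changes were 2.97 for vht1 on the left and 3.75 for obr1 on the right.

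Genes for fatty acid synthesis, desaturation and activation were higher in fas S.j. Excluding the replaced genes, all 8 members of this list were higher, 3 rose (37.5%), and the median was 0.68. Acetyl-CoA carboxylase cut6 read 240 FPKM in wild type and 493 FPKM in fas S.j. (change 1.04). The acyl-CoA ligase gene lcf1 read 342 and 630 FPKM, and the desaturase gene ole1 read 1264 and 2267 FPKM. Just below the limit was lcf2 (104 and 178 FPKM, change 0.76). The acyl-CoA binding protein gene acb1 read 461 and 695 FPKM, while the elongase gene elo1 was level at 144 and 146 FPKM. Beside vht1, biotin synthase bio2 rose from 152 to 372 FPKM (change 1.29), and the biotin ligase gene bpl1 read 17.9 and 24.8 FPKM. Among these genes vht1 and cut6 share a locus with others.

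Lipid genes downstream of acyl-CoA were divided. In the glycerophospholipid list, with a median of -0.08 over 17 members and 0.15 over those alone in their locus, the acyltransferase genes ale1 (40.8 to 99.7 FPKM) and slc1 (161 to 295 FPKM) rose together with lcf1. The inositol transporter genes itr2 (369 to 178 FPKM) and itr1 (72.4 to 40.7 FPKM) fell. All 3 triacylglycerol lipase genes were higher, ptl1 at 69.8 and 125 FPKM (change 0.83), ptl2 at 129 and 225 FPKM (change 0.79) and ptl3 at 46.9 and 71.9 FPKM (change 0.61). The acyltransferase gene dga1, for the last step of triacylglycerol synthesis, was level at 104 and 103 FPKM. Of 26 ergosterol genes, 19 were higher but none passed a limit, and the median was 0.14. No sphingolipid gene passed a limit either, with a median of -0.11 over 8 members. Of the lipid genes named here that passed a limit, slc1, ptl1, itr1 and itr2 share a locus with other genes.

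Carbon use was mixed. Of 22 glucose-repressed or alternative carbon genes, 6 rose (27.3%) and 3 fell (13.6%), with a median of 0.40. Invertase inv1 went from 19.3 to 51.9 FPKM, the gluconeogenic enzyme gene fbp1 from 15.2 to 36.5 FPKM, and the alpha-glucosidase genes agl1 and mal1 from 17.1 to 38.5 and from 23.0 to 49.4 FPKM. The hexose transporter gene ght2 rose from 61.6 to 116 FPKM, whereas ght5, for the high-affinity transporter, fell from 480 to 215 FPKM. The dihydroxyacetone kinase genes also parted, dak2 rising from 8.16 to 15.7 FPKM and dak1 falling from 267 to 147 FPKM. Glycolytic genes had a median of 0.17, with gpd3, a glyceraldehyde-3-phosphate dehydrogenase, falling from 917 to 255 FPKM and its abundant paralogue tdh1 at 14407 and 20740 FPKM. Of the carbon genes named here that passed a limit, mal1, ght5, dak1, dak2 and gpd3 share a locus with other genes.

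In mitochondria, succinate dehydrogenase and the rest of the respiratory chain did not move together. All 4 succinate dehydrogenase genes of the citric acid cycle list (sdh1, sdh2, sdh3 and tim18) were higher, and sdh2 rose from 82.8 to 159 FPKM. Of 29 respiratory chain and ATP synthase genes, 26 were lower, with a median of -0.24 and none past a limit. The external NADH dehydrogenase gene nde1 fell from 543 to 247 FPKM, and the ATP/ADP carrier gene anc1 from 939 to 525 FPKM.

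Genes of growth were slightly lower. The 141 ribosomal protein genes had a median of -0.09 and 127 were lower, and the 92 ribosome biogenesis genes had a median of -0.17 and 79 were lower. None of either list passed a limit. Proteasome subunits leaned the other way, with 30 of 44 higher and a median of 0.10. All 16 arginine and lysine synthesis genes were higher, with a median of 0.44 and a highest change of 0.73 for lys3 (389 and 648 FPKM), and none rose past the limit. Genes of the ER folding list, which includes the sensor ire1, had a median of 0.08 with none past a limit, and bip1, the ER chaperone gene, read 657 and 644 FPKM. COPII and Golgi transport genes had a median of -0.01, and all 17 lay between -0.26 and 0.12.

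**Figure D4:**
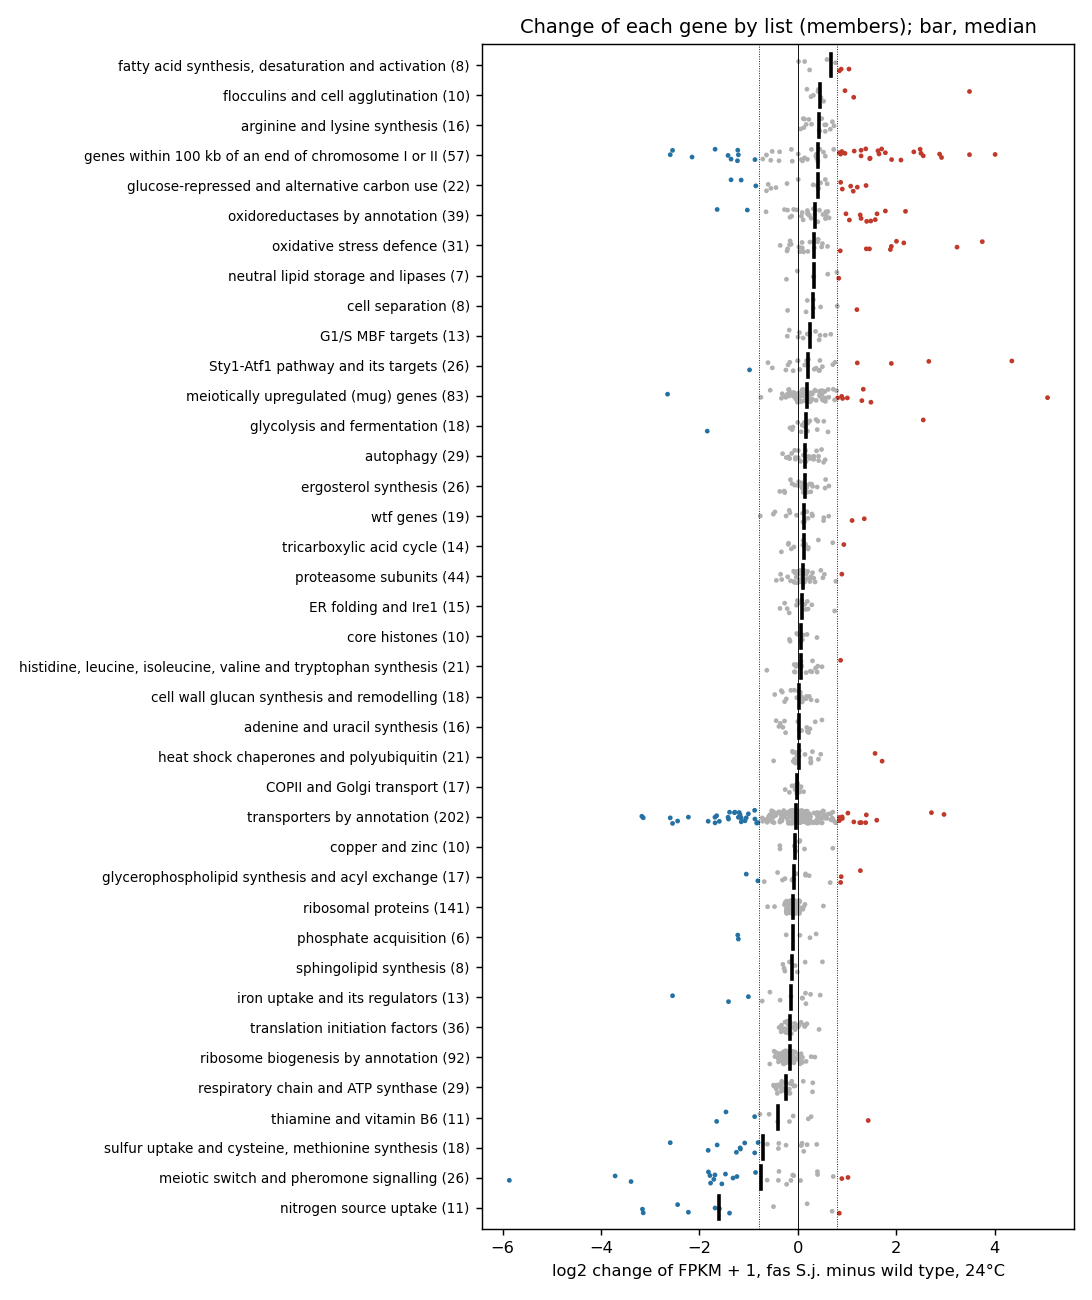
Change in log2(FPKM + 1), fas S.j. minus wild type at 24°C, for each member of the gene lists with at least 5 members (number in brackets). Points are genes, red at 0.8 or more and blue at -0.8 or lower, dotted lines mark those limits, and black bars are medians, which run from 0.68 for fatty acid genes to -1.60 for nitrogen source uptake.

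Lists of the cell surface and of cell separation differed. The 18 genes of cell wall glucan synthesis and remodelling had a median of 0.03, with 10 higher and none past a limit. The flocculin list, which covers proteins of cell agglutination and their regulators, had 10 members, all higher, with a median of 0.44. The DIPSY glycoprotein gene pfl9 went from 0.922 to 20.5 FPKM (change 3.49), pfl8 from 12.1 to 24.5 FPKM and pfl7 from 0.312 to 1.88 FPKM. Their regulator mbx2 read 14.7 and 21.5 FPKM. Among cell separation genes, adg1 rose from 106 to 244 FPKM. The septum glucanase gene eng1 followed at 87.3 and 153 FPKM, with a change of 0.80 just below the limit.

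Many genes near the ends of chromosomes I and II passed a limit. Within 100 kb of an end of the assembly, 57 members were read, of which 24 rose (42.1%) and 10 fell (17.5%). Between 100 and 200 kb the shares were 14.6% and 5.96% of 151 members. Without the last 100 kb, 183 of the 207 rises were left. The ends differed from each other. On the right end of chromosome I, 12 of 19 members rose, and on the left end of chromosome II 7 of 11 rose. On the right end of chromosome II, 1 of 12 rose and 5 fell, among them the acid phosphatase gene pho1 (356 to 152 FPKM) and the phosphate transporter gene pho84 (436 to 188 FPKM). Chromosome III was not part of this count. Genes at the ends were weakly expressed, with a median of 11.8 FPKM in wild type against 42.4 FPKM for all other annotated members. Among those with a mean FPKM of at least 10, 13 of 33 rose at the ends (39.4%) and 141 of 4498 elsewhere (3.13%).

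**Figure D5:**
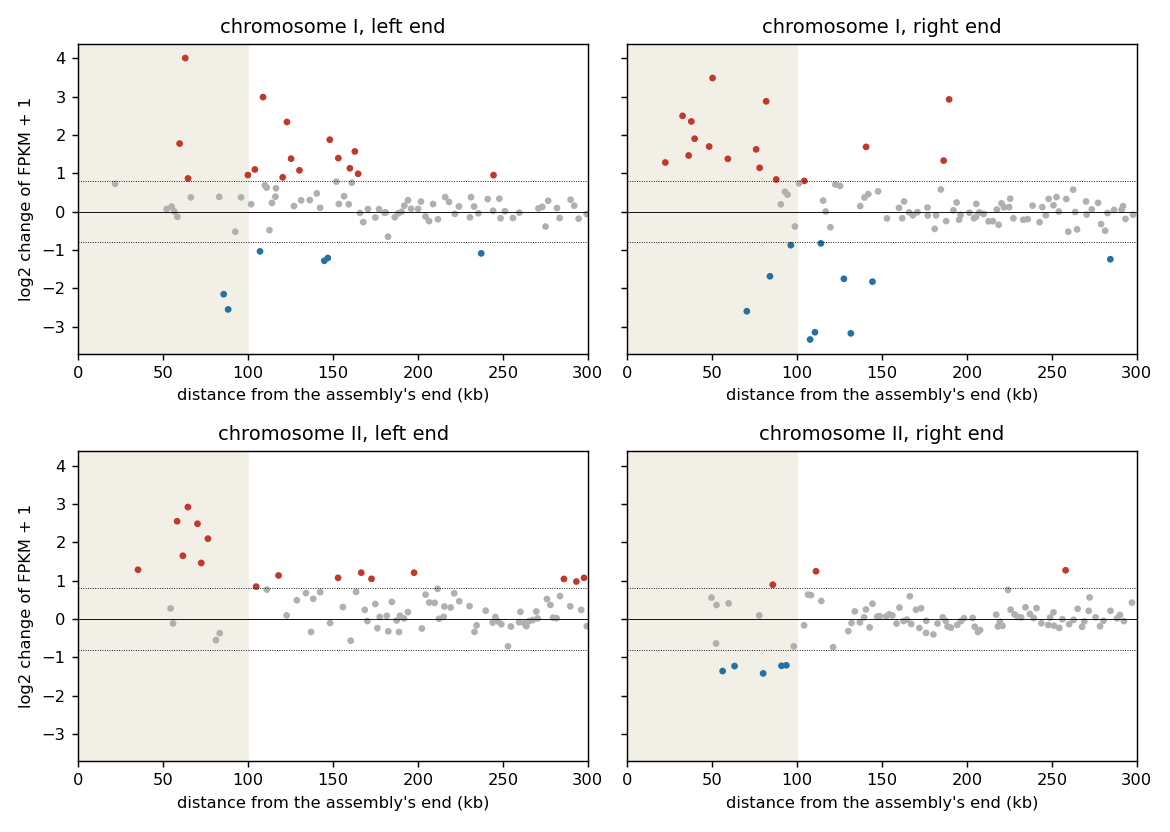
Change in log2(FPKM + 1) at 24°C of each member against its distance in kb from the end of the assembly, for both ends of chromosomes I and II. The shaded band is the last 100 kb, where 24 of 57 members rose (red) and 10 fell (blue), and dotted lines mark the limits of 0.8 and -0.8.

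Some of the genes that rose were neighbours. Of 204 with a position on ASM294v3, 57 (27.9%) lay in 20 runs of at least 2 adjacent members that all rose. In 12 of these runs the genes of the run shared no locus with each other. Some of those genes shared one with a gene outside the run, as dak2 and SPBPB21E7.11 did. In the other 8 runs, genes of the run shared a locus. Reads can be divided among genes that share a locus. Of the falls, 24 of 101 (23.8%) lay in 11 runs. No value for unrelated genes was computed for these shares. The longest run covered 8 genes on the right arm of chromosome I, at 5517951 to 5556768, from yhb1, the nitric oxide dioxygenase gene (28.3 and 75.1 FPKM), to SPAC750.01, an aldo-keto reductase gene (1.06 and 4.01 FPKM). Between them stood pfl9, SPAC186.02c, SPAC186.04c (2.52 and 12.2 FPKM), gdt1, the isomerase SPAC186.06 (6.03 and 18.4 FPKM) and the hydroxyacid dehydrogenase SPAC186.07c (0.377 and 6.79 FPKM). The next longest held 6 genes on chromosome II at 58136 to 77625, namely eno102, SPBPB21E7.11 (0.130 and 2.54 FPKM), cmt2, aes1, SPBPB21E7.08 (17.8 and 50.8 FPKM) and the asparaginase gene SPBPB21E7.09 (2.37 and 13.4 FPKM). Both of these runs lie within 100 kb of a chromosome end, so their genes are also among the rises counted at the ends.

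Chromosome III carried 2 runs of 4 genes. One, at 1392544 to 1402672, joined ole1 and gst4 with wtf11 (3.80 and 11.2 FPKM) and wtf12 (4.27 and 10.3 FPKM), members of the wtf family of spore killer elements. The wtf genes are similar in sequence, so reads may be divided among them, and the median of the 19 wtf members was 0.13. The other, at 32624 to 48501, held SPCP20C8.03 (0.532 and 5.05 FPKM), SPCC1884.01 (2.36 and 6.80 FPKM), the nickel transporter gene nic1 (10.7 and 22.6 FPKM) and hsp3101. Runs of 3 were SPAC977.14c (103 and 354 FPKM), SPAC977.15 and dak2; SPAC11D3.08c (19.1 and 36.4 FPKM), SPAC11D3.09 and SPAC11D3.10 (4.80 and 14.1 FPKM); and SPAC869.09, the melibiase gene mel1 (0.295 and 1.86 FPKM) and hry1 (0.143 and 2.53 FPKM).

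The lists held 59.2% of the falls, against 40.6% of the rises and 23.0% of all members. Apart from fas2, the largest fall was that of urg1, one of a cluster of uracil-regulated genes, from 679 to 8.30 FPKM, and its neighbours urg2 (505 to 31.2 FPKM) and urg3 (229 to 39.2 FPKM) fell with it. Nitrogen source uptake had the lowest median of the lists with at least 5 members, -1.60, with 7 of 11 members falling (63.6%), among them the ammonium transporter gene amt1 (102 to 17.9 FPKM) and the permease gene isp5 (28.3 to 2.32 FPKM). The arginine and lysine transporter gene cat1 was the exception in this list that rose, from 39.5 to 71.6 FPKM. The 10 genes annotated as amino acid permeases, a family chosen after the values were seen, did not move together. Of these, 4 rose and 3 fell, with a median of 0.32. Of 18 sulfur genes 9 fell, led by the sulfate transporter gene sul2 (180 to 28.9 FPKM). Transporters as annotated had 28 falls (13.9%) and 13 rises (6.44%) among 202 members. The remaining largest falls included isp7 (69.7 to 6.93 FPKM), the permease SPAC1039.01 (62.9 to 6.10 FPKM), mmf2 (35.1 to 2.59 FPKM) and tip1 (29.0 to 2.43 FPKM), which shares its locus with the glucose-6-phosphate dehydrogenase gene SPAC3C7.13c (35.6 to 84.1 FPKM).

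Mating genes fell as well. Of 26 members of the meiotic switch and pheromone list, 13 fell and 2 rose, with a median of -0.74. The M-factor pheromone genes mfm2 (100 to 0.740 FPKM), mfm1 (23.6 to 1.35 FPKM) and mfm3 (823 to 240 FPKM) fell, as did ste11 (37.1 to 9.81 FPKM) and mei2 (49.6 to 2.86 FPKM), whose RNA-binding product starts meiosis. The mfm genes encode the same peptide, and reads may be divided among them. M-factor is made by cells of the h- type, and the mating type of the fas S.j. library is not given. The P-factor gene map2 of the opposite type read 1.47 and 2.26 FPKM, and mat1-Mc was listed at 0 in both. Whether these changes go with the synthase or with mating type cannot be told apart.

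Promoters were searched to show which regulatory words stood before the genes that moved. The 300 bases before the annotated start of each gene were read from ASM294v3 and searched on both strands, and a match is a description, not a binding site. The CRE word TGACGT, known to be bound by Atf1, stood before 24 of the 204 annotated genes that rose (11.8%), 5 of the 101 that fell (4.95%) and 6.10% of all members. The Pap1 word TTAGTAA, whose other strand reads TTACTAA, stood before 12.7% of rises, 11.9% of falls and 12.8% of members. It stood before 11 of the 31 oxidative stress genes, and of those 11 gst2, gst4 and bfr1 rose. The heat shock word GAANNTTC was at 10.8% of rises, 11.9% of falls and 11.3% of members. Of the remaining words, Rst2's CCCCTC was at 1.47% of rises and 8.91% of falls against 1.93% of members, the forkhead word GTAAACA at 16.7% of rises and 15.8% of falls against 17.2%, and the MCB word ACGCGT at 1.96% and 2.97% against 2.91%. The TR box TTCTTTGTT, known to be bound by Ste11, was at 11 of the 101 falls (10.9%), 2.94% of rises and 1.93% of members. Most of these falls belong to the meiotic switch and pheromone list, which held the box at 11 of 27 promoters. The share among falls is thus not separate from the fall of that list. No test was made of these shares, and words can overlap in the same promoter.

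Examples of both words are printed 5′ to 3′ on the strand of the gene, from the ASM294v3 sequence, with the matching letters in capitals. The first 6 stretches hold the CRE word, or its complement ACGTCA, before genes that rose.
ctt1, chrIII:58875-58904, minus strand: attgtgcaaataTGACGTtggtaattctac
pmp20, chrIII:119052-119081, minus strand: aatttggtgattTGACGTcaccaaaagatt
ole1, chrIII:1394919-1394948, minus strand: taagttgactcaACGTCAtttcgtctcacg
ght2, chrII:3427015-3427044, plus strand: cttgtaatattgTGACGTataaccaaaaac
SPAC3G6.05, chrI:5388027-5388056, plus strand: aagagacaacggACGTCAatttttgttgta
SPAC977.14c, chrI:60871-60900, minus strand: tcagcaaacttgTGACGTttaacaagctat
The word stood 59 bases before the annotated start of ctt1 and 60 bases before that of ole1. The next stretches hold the TR box, or its complement AACAAAGAA, before mating and meiosis genes that fell.
mei2, chrI:4515144-4515173, minus strand: attttaaagtTTCTTTGTTttacaaaccct
ste11, chrII:3983239-3983268, plus strand: aaagttgaatTTCTTTGTTtgattttcatt
mfm1, chrI:4916926-4916955, plus strand: gggtccgaccAACAAAGAAgtctcagtttt
mfm3, chrII:700190-700219, plus strand: aggcccaaccAACAAAGAAgtctcagattt
rgs1, chrI:679708-679737, plus strand: atttaatgatTTCTTTGTTtaaaagaaagc
The promoter of rgs1, the regulator of pheromone G-protein signalling (18.3 to 6.74 FPKM), held the box at 3 places, and those of mfm1 and mfm3 shared most letters around it.

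At 30°C the table that was analysed held 285 genes, all lower in fas S.j., so rises there were not analysed here. It was normalised apart from the 24°C table. It held 57 of the 103 falls at 24°C (55.3%) and 4 of the 207 rises (1.93%), against 5.48% of all members.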

How the data were processed

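Poly(A) libraries were made from both strains, 1 a strain at 24°C and at 30°C. Mapping by the authors used TopHat, and the comparison of strains used Cuffdiff, both run through Galaxy; versions, genome build and the library normalization option are not given in the sources used here, and the sample records and the methods name different instruments and read lengths. The FPKM values in the deposited tables are those Cuffdiff wrote, normalised separately at each temperature. The authors' fold changes, test statistics, p-values and q-values, which compare 1 library with 1 library, were not used. The tables hold no read counts, and depth was approximated from the spacing of the lowest FPKM values.

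Change was log2(FPKM + 1) of fas S.j. minus that of wild type, over members, whose FPKM averaged 1 or more, and a gene past 0.8 or -0.8 was counted. Of 5143 identifiers, 5106 matched the RefSeq annotation of ASM294v3. Lists were matched by symbol or by annotated product, and symbols annotated with another function were removed; 1 gene and the promoter word tied to it are not reported here. The 42 lists were described by medians and counts only. Genes named were the replaced genes, the 20 largest rises and 10 largest falls with at least 1 FPKM in both libraries, list members past a limit, members of long runs of neighbouring rises and members listed at 0 in 1 library; genes named outside this rule were chosen after their values were seen. Members and lists were chosen with earlier results of these data known. The alternatives changed the pseudocount to 0.1, the minimum FPKM to 10 or to none, the centre, the limit to 1 and the genes to those alone in their locus; leaving out the chromosome ends was added after seeing the data. Python 3.11.15, numpy 2.4.6, pandas 2.3.3 and matplotlib 3.10.9 were used, and the functions were tested on simulated data.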

Additional observations from a re-analysis of the deposited data

Results flagged for a closer look

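Of the genes that rose at 24°C, 4 were lower in fas S.j. in the 30°C table, with 1 library a strain at each temperature, so the difference between temperatures was not tested. That table holds only genes lower in fas S.j., so any gene found in it had to be lower, and it held 1.93% of the rises against 5.48% of all members. SPAC977.15 had a change of 4.01 at 24°C (1.83 and 44.4 FPKM) and -1.21 at 30°C (13.9 and 5.44 FPKM). For gem8, listed at 0 in wild type and 7.04 FPKM in fas S.j. at 24°C, the 30°C values were 12.2 and 8.37 FPKM. For pfl7 the change was 1.13 at 24°C and -0.53 at 30°C, and for dak2, which lies beside SPAC977.15, it was 0.87 and -0.65. In wild type, all 4 read higher at 30°C than at 24°C, in tables that were normalised separately.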

How the results depend on the processing

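The count of rises was 237 under a pseudocount of 0.1 and 144 with a limit of 1, against 207, and all 207 genes were among the 237. Restricting to genes alone in their locus left 117 rises and 53 falls, since fewer genes entered. Of 251 list medians under the alternatives, 244 moved by 0.25 or less on the log2 scale. Among genes alone in their locus, the medians were 0.63 for cell separation, 0.73 for the chromosome ends, -1.39 for the meiotic switch and pheromone list, -0.77 for thiamine and vitamin B6 and 0.36 for vacuolar proteases. With no minimum the median at the chromosome ends was 0.0, since unexpressed genes entered, and with a minimum of 10 that of the meiotic switch and pheromone list was -1.32. Centring moved no list median by more than 0.25. Medians near 0 changed sign: centring gave 0.0074 over all members and 0.0023 for COPII and Golgi transport, and genes alone in their locus gave 0.15 for the glycerophospholipid list, -0.0040 for cell wall glucan and 0.0040 for phosphate acquisition, the last being 0.14 without the chromosome ends. Of 60 single-gene values, 7 moved by more than 0.25, all under the smaller pseudocount. Without the last 100 kb of chromosomes I and II, 183 genes rose. No paired analysis was possible because the strains have 1 library each at 24°C, and the 30°C table analysed held 285 genes, all lower in fas S.j. and normalised separately. With 1 library a side no result has a replicate check, and values of weakly expressed genes rest on few reads.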

Other observations

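Genes named in this part were chosen after their values were seen. Of 11 genes of the thiamine and vitamin B6 list, 1 rose and 3 fell, with a median of -0.41. The pyridoxal reductase gene plr1 rose from 72.6 to 197 FPKM, while bsu1, for a B6 importer, fell from 86.3 to 26.8 FPKM, the thiazole synthesis gene thi2 from 75.8 to 26.9 FPKM and thi9 from 71.3 to 38.3 FPKM. Outside that list, the pyridoxine transporter gene SPCC576.17c rose from 22.6 to 50.8 FPKM. The pantothenate transporter gene liz1 went from 5.17 to 17.7 FPKM (change 1.60) and pan6, for pantothenate synthesis, from 79.9 to 176 FPKM (change 1.13). Pantothenate is the precursor of coenzyme A. Of the vitamin genes named here, plr1 and liz1 share a locus with other genes.

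Genes used in meiosis did not all fall with ste11 and mei2. The recombinase gene dmc1 rose from 16.5 to 42.0 FPKM, the chromosome axis gene hop1 from 1.94 to 4.97 FPKM, the meiotic cyclin gene rem1 from 5.36 to 10.9 FPKM and spo6 from 5.58 to 11.4 FPKM. Of 83 genes named for being upregulated in meiosis (mug), 60 were higher and 1 fell, with a median of 0.18. Of the 83, 8 rose (9.64%, against 4.19% of all members), among them mug108, which was listed at 0 in wild type. The sterol transfer protein gene osh3 rose from 53.1 to 141 FPKM and the lipid transfer protein gene vps1301 from 9.11 to 18.7 FPKM. Of 5 sec14 family genes, csr101 rose from 29.1 to 84.6 FPKM and csr103 from 99.2 to 220 FPKM, while spo20 (200.4 and 285 FPKM), pdr16 (127 and 122 FPKM) and csr102 (84.7 and 69.2 FPKM) stayed between the limits. Iron genes held 3 falls among 13 members and no rise, led by the siderophore transporter gene str3 from 205 to 34.2 FPKM. Of the genes named in this paragraph that rose, dmc1, spo6, mug108, vps1301, csr101 and csr103 share a locus with other genes.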
